A study of Rattus norvegicus with 9 samples.

Results

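The Hox genes were taken as every gene whose symbol names a HoxA, HoxB, HoxC or HoxD gene by cluster letter and number, which gave 39 of the 21923 genes measured: 11 of HoxA, 10 of HoxB, 9 of HoxC and 9 of HoxD. Their transcripts were counted in rat stromal cells of adipose tissue (ADSCs), mesenchymal cells that adhere to plastic, which were released with collagenase from subcutaneous inguinal fat of GFP-transgenic rats and grown to passage 4. Vivo libraries were made from such cells injected into fat of nude mice and re-isolated 7 days afterwards. Nude mice lack a normal thymus and T cells but keep other leukocytes, and host mouse reads could enter the Vivo libraries, a part that was not tested. For Vitro libraries, cells of that passage stayed in the incubator and were harvested alongside the Vivo cells. Con libraries came from the passage 4 cells themselves. Each group had 3 libraries, all 3 groups carry the GFP transgene, and no group has an altered Hox gene. The sources used here do not give the age and number of the rats, how Vivo cells were separated from host cells, or whether libraries of a group came from separate cultures. The p-values therefore measure only library-to-library spread, which may be technical.

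Hox genes encode homeodomain transcription factors and lie in 4 clusters, each on a chromosome of its own. Genes at the same position in different clusters form a paralog group, numbered 1 to 13. In the vertebrate embryo, low-numbered genes are active from the head end of the trunk backwards, and high-numbered genes are active in its tail end and in the distal limb. Adult fibroblasts and other mesenchymal cells keep a combination of Hox transcripts that differs with the body region they came from, which is why such a combination is called a positional code. Inguinal fat lies at the groin, beside the hindlimb.

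Promoters of 20 of the 39 genes were in the RefSeq table of the GRCr8 assembly, as windows of 300 bases around the start of each gene. Those below place genes that were on beside genes that were off or unsteady, and Hoxd8, Hoxd12 and Hoxd13 are members of the same cluster. Capitals mark each CG dinucleotide, the site of DNA methylation in mammals.
Hoxc4, chr7:136048809-136049108, + strand: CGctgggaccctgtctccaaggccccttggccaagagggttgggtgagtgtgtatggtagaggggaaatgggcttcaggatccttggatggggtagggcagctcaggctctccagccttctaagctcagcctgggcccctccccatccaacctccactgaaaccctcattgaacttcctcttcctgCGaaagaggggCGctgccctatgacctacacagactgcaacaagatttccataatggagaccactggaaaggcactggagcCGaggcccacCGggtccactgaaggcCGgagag
Hoxd8, chr3:80014973-80015272, + strand: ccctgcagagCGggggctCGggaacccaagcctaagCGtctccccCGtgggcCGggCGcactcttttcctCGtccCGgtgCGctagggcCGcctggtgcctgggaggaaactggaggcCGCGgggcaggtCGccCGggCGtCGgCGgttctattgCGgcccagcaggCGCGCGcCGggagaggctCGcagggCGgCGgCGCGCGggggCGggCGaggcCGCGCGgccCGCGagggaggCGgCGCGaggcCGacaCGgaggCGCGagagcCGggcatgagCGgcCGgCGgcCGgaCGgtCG
Hoxd12, chr3:79984856-79985155, + strand: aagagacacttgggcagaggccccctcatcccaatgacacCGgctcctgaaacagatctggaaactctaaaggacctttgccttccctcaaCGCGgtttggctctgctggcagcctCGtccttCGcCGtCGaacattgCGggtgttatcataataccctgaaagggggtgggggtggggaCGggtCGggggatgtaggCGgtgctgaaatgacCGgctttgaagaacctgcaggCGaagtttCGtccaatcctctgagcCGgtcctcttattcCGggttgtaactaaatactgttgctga
Hoxd13, chr3:79977827-79978126, + strand: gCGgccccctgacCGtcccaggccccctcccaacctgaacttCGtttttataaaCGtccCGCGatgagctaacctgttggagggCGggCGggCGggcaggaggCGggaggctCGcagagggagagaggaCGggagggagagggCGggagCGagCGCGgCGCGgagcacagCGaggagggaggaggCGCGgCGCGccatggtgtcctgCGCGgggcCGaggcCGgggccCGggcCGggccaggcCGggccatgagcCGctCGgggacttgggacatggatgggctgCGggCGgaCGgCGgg
The Hoxd8 window held 49 CG dinucleotides, a number reached by 0.866% of the 33469 promoter windows of that length, and the Hoxd13 window held 36, reached by 5.43%. The Hoxd12 window held 16, reached by 30.5% of windows, and the Hoxc4 window held 6, reached by 56.3%. The median was 22 over the 21 Hox windows and 7 over all windows. Of the genes on in any group, only Hoxc4, Hoxd8 and Hoxd9 had a window. Windows of Hoxc10, Hoxc8, Hoxc6 and the HoxB genes that were on are missing. CG number did not follow transcript level among the 4 genes printed, and the other genes were not compared. On the authors' FPKM, which is per length of transcript, Hoxc4 with the fewest averaged 4.915 over the 9 libraries, Hoxd8 with the most averaged 1.84, Hoxd13 averaged 0.271, and Hoxd12 had no count in any library.

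Library totals ran between 17484607 and 18355242 counts, so that 3 counts, the limit a count of 0 allows, were worth 0.159 to 0.175 CPM, the count of a gene after libraries are scaled by TMM to the same total. The labelled cell type was checked on marker genes. The sum over 11 stromal markers, Pdgfra and Thy1 among them, was mainly Col1a1. It came to 34840 to 37150 CPM in Vivo, 25980 to 41780 in Vitro and 39460 to 44850 in Con libraries. Dpp4 and Pi16 were called higher in Vivo than in Con cells, beside 5.17% of all tested genes. Over Vitro cells Dpp4, Eng, Pi16, Dcn and Pdgfrb were called higher, beside 5.38% of all tested genes. None of the 11 was called lower in Vivo cells. Dpp4 had enough counts for testing only in Vivo libraries. Of the defining markers of other cell types, Ptprc of leukocytes stayed at or below 0.170 CPM in every library, Cd3e of T cells was at 0, Adipoq of adipocytes reached 0.216 CPM and Epcam of epithelium 0.682 CPM. Cdh5 of endothelium reached 0.326 CPM in Vivo libraries, 0 in Vitro libraries and 0.695 CPM in Con libraries. Other genes of those lists were present: Cd14 at 17.6 to 24.96 CPM and Csf1r at 1.33 to 5.08 CPM over the 9 libraries, Pparg at up to 4.26 CPM, Krt8 at up to 3.81 CPM and Cdh1 at up to 2.33 CPM. The leukocyte list (10 genes) summed to 27.4 to 32.8 CPM in Vivo, 22.1 to 27.6 in Vitro and 21.8 to 25.2 in Con libraries, and the adipocyte list (6 genes) to 0.436 to 1.60, 0.638 to 1.69 and 1.92 to 5.23 CPM. The epithelial list (6 genes) summed to 3.80 to 5.18, 0.641 to 1.13 and 1.58 to 8.58 CPM in those groups, and its members Krt8 and Krt18 were called higher in Vivo than in Vitro cells. Krt18 entered the test through Vivo libraries and Con replicate 1, where it was high, so its call is not independent of that selection. The mesothelial list (5 genes, mainly Msln) was at 102 to 143 CPM in Vivo libraries, against 25.1 to 29.3 in Vitro and 23.5 to 29.5 in Con libraries. Its members did not move together. For Vivo over Vitro Msln and Wt1 were called higher and Lrrn4 lower, beside 5.38% and 5.52% of all tested genes. Lrrn4 entered the test only through cultured libraries, where it was high. Upk3b and Krt19 stayed at or below 0.162 CPM. The mural list (6 genes) was at 67.1 to 117, 46.6 to 49.5 and 35.6 to 37.1 CPM. The endothelial list (7 genes) was at 22.2 to 28.5, 6.06 to 10.6 and 6.11 to 9.44 CPM. In Vivo libraries it was mainly Kdr (12.2 to 17.5 CPM) and Tek (7.48 to 10.7 CPM). In the cultured libraries it was mainly Tek, at 4.31 to 8.71 CPM in Vitro and 5.21 to 6.20 CPM in Con libraries. The Schwann list (4 genes, mainly S100b) was lower in Vivo libraries, at 13.1 to 16.0, 40.8 to 67.3 and 36.2 to 57.8 CPM, and S100b was called lower in Vivo than in either cultured group. The part of these cell types in the Hox values was not tested, and in bulk libraries fewer cells of a type and less RNA per cell cannot be told apart. On the third principal component of all tested genes (13.9% of the variance) Vivo replicate 3 lay at 43.4, against −35.5 and −29.8 for Vivo replicates 1 and 2. On the first component (47.5% of the variance) it lay at −80.2, against −42.2 and −39.5.

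A Hox gene was called on in a group when it had at least 1 CPM, scaled by TMM, in each of its 3 libraries. By that rule 15 Hox genes were on in Vivo cells, 16 in Vitro cells and 17 in Con cells, and 15 were on in all 3 groups. In HoxC the 7 genes in an unbroken run of the cluster were on in every group: Hoxc4, Hoxc5, Hoxc6, Hoxc8, Hoxc9, Hoxc10 and Hoxc11. In HoxB the genes Hoxb2, Hoxb3, Hoxb4, Hoxb6, Hoxb7 and Hoxb9 were on in every group. In HoxD the pair Hoxd8 and Hoxd9 was on in every group. No HoxA gene was on in any group. There were 2 further genes that make up the difference between groups. Hoxb5 lay close to the threshold, at 0.800 to 1.58 CPM in Vivo, 0.641 to 2.16 in Vitro and 1.10 to 2.09 in Con libraries. Hoxb8 spread widely within Vivo, at 0.109, 0.817 and 1.71 CPM, and had 1.46 to 2.13 in Vitro and 1.42 to 2.14 in Con libraries. Just inside the threshold lay Hoxd9, at 1.09 CPM or more in every library. Just outside it in Con lay Hoxd4, at 0.811 to 1.71 CPM. The on genes thus spanned paralog groups 2 to 11, with both ends of the clusters (Hoxb1, Hoxd1, Hoxb13, Hoxc12, Hoxc13 and Hoxd10 to Hoxd13) off in every group by this rule.

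**Figure D1:**
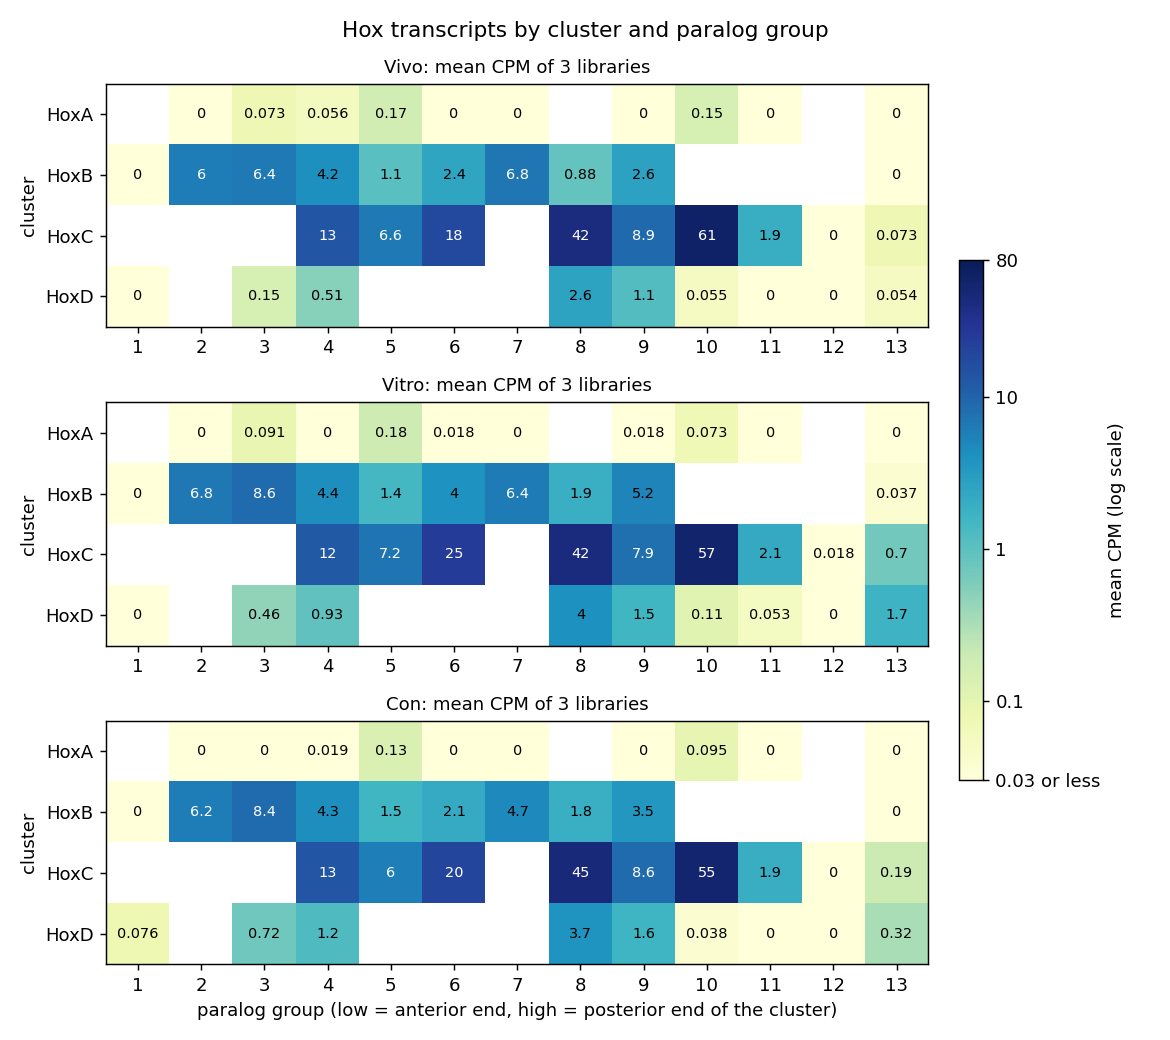
Mean CPM of each Hox gene (columns, paralog groups 1 to 13; rows, the 4 clusters) in the Vivo, Vitro and Con groups, 3 libraries each, on a log colour scale; a blank cell has no gene at that position or is not shown. The HoxC row was filled from Hoxc4 to Hoxc11 in each group, and the HoxA row stayed at or below 0.183 CPM.

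All 39 genes were accounted for. There were 7 with no count in any library, Hoxa13, Hoxb1 and Hoxd12 among them. Another 13 had some counts but too few to enter the test of all genes, with Hoxd3 the highest at 71 counts over 9 libraries. The remaining 19 passed that filter: 8 of HoxB, 7 of HoxC, 4 of HoxD and none of HoxA. A gene can pass through the group where it is high, so the 19 do not stand for all 39.

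HoxC took the largest share of Hox counts in every library, 78.9% to 83.6% in Vivo, 72.7% to 78.5% in Vitro and 77.9% to 80.4% in Con libraries. HoxB took 16.4% ± 2.01, 19.2% ± 2.35 and 17.1% ± 1.01 in those groups (SD, n = 3 each). HoxD took 1.97% to 5.30% and HoxA 0.0914% to 0.278% over the 9 libraries. Summed over all 39 genes, Hox transcripts made up 186.4 ± 20.5 CPM in Vivo, 201.4 ± 9.43 in Vitro and 190.4 ± 6.64 in Con libraries (SD, n = 3 each), and the ranges of the groups overlapped. Shares of counts are not per length, and levels of single genes were ranked only as FPKM. Of the summed Hox FPKM, HoxC took 69.8% to 72.9% in Vivo, 61.4% to 70.2% in Vitro and 69.95% to 73.2% in Con libraries. HoxB took 24.7% to 26.6%, 24.9% to 33.55% and 22.3% to 24.9% of it in those groups. Per length, Hoxc10 was the most abundant Hox transcript in each group, at 24.5 ± 6.13 FPKM in Vivo, 23.1 ± 0.713 in Vitro and 20.9 ± 1.27 in Con cells (SD, n = 3 each). Its libraries lay above those of the next gene in each group. Hoxc8 and Hoxc6 came next, at 13.95 ± 1.305 and 10.04 ± 2.30 FPKM in Vivo cells and 14.3 ± 1.60 and 10.6 ± 0.892 FPKM in Con cells, without overlap between the pair. In Vitro cells Hoxc6 (13.8 ± 1.67 FPKM) and Hoxc8 (13.6 ± 0.658 FPKM) overlapped, so their order there was not resolved. Below these, at about 5 FPKM and less, neighbours in the order mostly overlapped: in Vivo cells Hoxb2, Hoxc9, Hoxc4, Hoxb7 and Hoxb6 came next, and each overlapped the gene after it. The FPKM of a gene was not a fixed multiple of its counts: over the 17 genes on in any group, the length implied by the pair of values differed between libraries by 1.05 to 2.76 times (median 1.40, highest for Hoxc11).

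**Figure D2:**
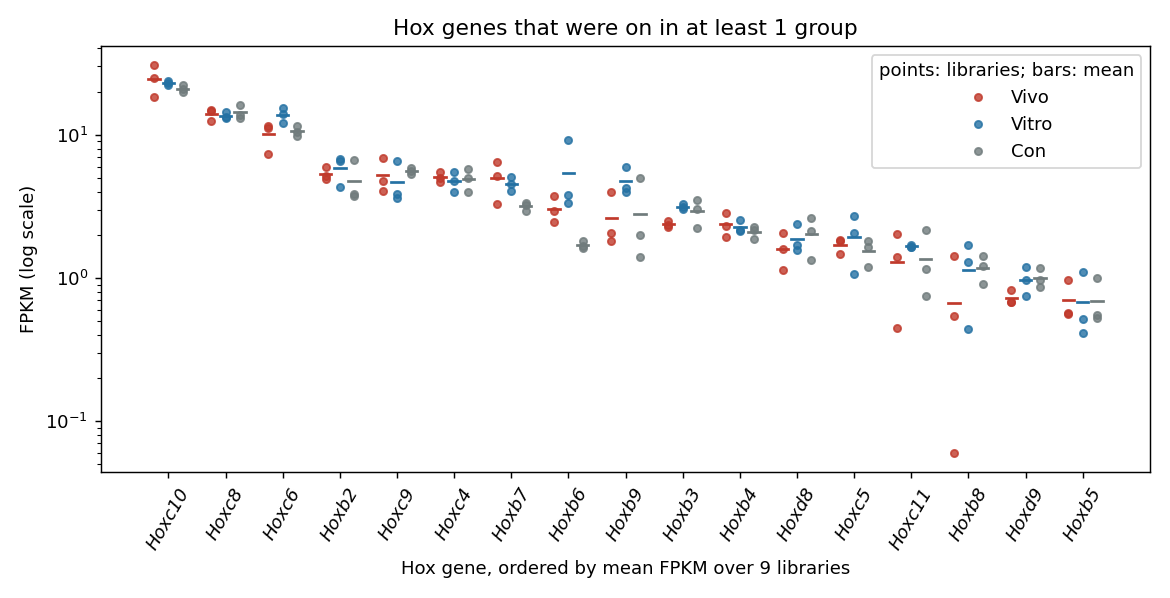
FPKM (log axis) of the 17 Hox genes that were on in at least 1 group, ordered by their mean over the 9 libraries; points are libraries, bars are group means of 3 libraries (Vivo, Vitro, Con from left to right). Hoxc10 led in each group, and the 3 colours overlapped for most genes.

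Hoxc10, a posterior gene used in hindlimb and lumbar patterning, had 44.4, 60.04 and 77.6 CPM in Vivo libraries, 58.0, 54.2 and 58.1 in Vitro libraries and 52.8, 57.9 and 53.4 in Con libraries. The Vivo libraries spread below and above all the cultured ones. The log2 fold change was 0.15 ± 0.18 for Vivo over Con (SE; 95% interval −0.26 to 0.56) and 0.10 ± 0.18 for Vivo over Vitro (interval −0.31 to 0.50). Hoxc8, a gene of trunk patterning, had 44.3, 44.1 and 36.9 CPM in Vivo libraries, 42.3, 39.05 and 44.3 in Vitro libraries and 42.6, 41.8 and 51.5 in Con libraries, which overlapped throughout. Its interval was among the narrowest, −0.42 to 0.19 for Vivo over Con and −0.31 to 0.30 for Vivo over Vitro. Hoxc6, whose product acts at thoracic levels, had 15.1, 20.0 and 19.2 CPM in Vivo libraries, 20.7, 26.03 and 26.9 in Vitro libraries and 19.0, 22.2 and 18.2 in Con libraries. Vivo libraries lay below Vitro libraries without overlap, but the difference (log2 −0.44 ± 0.17, SE) did not pass the test (adjusted p = 0.127, edgeR). Hoxc6 overlaps Hoxc4 and Hoxc5 in the RefSeq annotation of GRCr8, so reads may be split among these genes and their separate values are uncertain.

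In HoxB, the anterior gene Hoxb2, which patterns the hindbrain, had the highest mean per length of its cluster in each group, with 5.33 ± 0.519 FPKM in Vivo, 5.86 ± 1.32 in Vitro and 4.76 ± 1.63 in Con cells (SD, n = 3 each), though it overlapped other HoxB genes. It had 5.71, 7.30 and 5.03 CPM in Vivo libraries, 6.93, 8.21 and 5.15 in Vitro libraries and 5.80, 7.87 and 4.81 in Con libraries, with overlap between all groups. Hoxb7, a trunk gene, had 4.67, 7.46 and 8.34 CPM in Vivo libraries, 6.64, 6.81 and 5.68 in Vitro libraries and 5.12, 4.58 and 4.52 in Con libraries. The Vitro libraries all lay above the Con libraries, and neither contrast with Con passed the test (log2 0.53, adjusted p = 0.190 for Vivo over Con; log2 0.43, adjusted p = 0.555 for Vitro over Con; edgeR). Hoxb6, also a trunk gene, had 2.45, 2.83 and 2.00 CPM in Vivo libraries, 2.10, 6.32 and 3.51 in Vitro libraries and 2.33, 2.32 and 1.51 in Con libraries. The high values were those of Vitro replicates 2 and 3, and the gene did not pass the test for Vitro over Con (log2 0.95 ± 0.40, SE, adjusted p = 0.413, edgeR).

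In HoxD, the trunk gene Hoxd8 had 2.61, 2.78 and 2.40 CPM in Vivo libraries, 3.90, 3.83 and 4.41 in Vitro libraries and 4.15, 3.96 and 2.95 in Con libraries. Every Vivo library lay below every cultured one. Its log2 fold change was −0.64 ± 0.24 for Vivo over Vitro (SE, adjusted p = 0.115) and −0.51 ± 0.24 for Vivo over Con (adjusted p = 0.199), neither past the threshold in edgeR's test. Hoxd9, its neighbour on the posterior side, had 1.14, 1.09 and 1.20 CPM in Vivo libraries, 1.57, 1.89 and 1.12 in Vitro libraries and 1.59, 1.42 and 1.91 in Con libraries. Vivo and Con libraries of Hoxd9 did not overlap, while Vivo and Vitro libraries did. Hoxd4, an anterior gene, had 0.543, 0.708 and 0.286 CPM in Vivo libraries, 0.582, 1.296 and 0.903 in Vitro libraries and 1.71, 1.19 and 0.811 in Con libraries. It gave the lowest unadjusted p for Vivo over Con (log2 −1.25 ± 0.49, SE), and its adjusted p was 0.136 in edgeR's test. Summed over the 9 HoxD genes, Vivo libraries held 3.94 to 5.18 CPM, below the 6.87 to 11.0 of Vitro and the 6.55 to 8.81 of Con libraries without overlap. That sum was seen in these values and is given as a description. All 4 tested HoxD genes had a negative log2 fold change for Vivo over either cultured group, given here without the share of all genes. Hoxd4 and Hoxd13 had too few counts in Vivo libraries alone and entered the test through cultured libraries. Their signs are therefore not independent of that selection.

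Each comparison was tested with edgeR's quasi-likelihood test over all 12364 genes with enough counts, with Benjamini-Hochberg adjusted p-values called below 0.05. Numbers of genes by unadjusted p, here and for the lists below, have no share of all genes beside them. They are given as a description only. Vivo over Con sets cells re-isolated from the host against the passage 4 cells. Time, re-isolation and any host reads come together with the stay in the host and cannot be told apart from it. Of the 19 Hox genes 0 were called for Vivo over Con, where 9.73% of all tested genes were. Without adjustment 1 (Hoxd4) had a p under 0.05, and DESeq2 and limma on FPKM called 0. Leaving out Vivo replicate 2 gave 1 call, Hoxd3, which then entered the test and was lower in Vivo cells. Hoxd3 entered only through cultured libraries, where it was high, with 1 and 0 counts in the Vivo libraries left. That call is therefore not independent of the selection. The Hox log2 fold changes had a median of −0.12 (all genes 0.01) and a median size of 0.24 (all genes 0.30), with 5 positive and 14 negative. The 95% interval lay within a 2-fold change in either direction for 10 of the 19, and reached beyond it for the other 9, so that changes of that size were not excluded by the interval for Hoxb5, Hoxb6, Hoxb7, Hoxb8, Hoxb9, Hoxd4, Hoxd8, Hoxd9 and Hoxd13. In 4 genes (Hoxb3, Hoxd4, Hoxd8 and Hoxd9) the Vivo libraries lay apart from the Con libraries, all below them, and 33.5% of all tested genes showed no overlap in that comparison.

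Vivo over Vitro sets re-isolated cells against cells kept in culture over the same time. Re-isolation and any host reads come together with the stay in the host here too. Of the 19 Hox genes 1 was called for Vivo over Vitro, Hoxd13, which was lower. Of all tested genes 10.9% were called in either direction and 5.52% as lower. Without adjustment 4 Hox genes had a p under 0.05 (Hoxb3, Hoxc6, Hoxd8 and Hoxd13, all negative), again without the share of all genes. The median log2 fold change was −0.41 (all genes 0.02) and the median size 0.41 (all genes 0.31), with 4 positive and 15 negative. The interval lay within a 2-fold change for 11 genes. Libraries did not overlap for 5 genes (Hoxb3, Hoxb9, Hoxc6, Hoxd8 and Hoxd13), against 35.2% of all genes tested. Vivo over Con and Vivo over Vitro share the Vivo libraries, so their values are not independent of each other.

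For Vitro over Con, which follows the cells through further culture, 0 of 19 were called, beside 0.0324% of all tested genes. Without adjustment 2 (Hoxb6 and Hoxd13) had a p under 0.05, and DESeq2 and limma on FPKM called 0. The median log2 fold change was 0.05 (all genes 0.00) and the median size 0.13 (all genes 0.19), with 13 positive and 6 negative, and the interval lay within a 2-fold change for 13 genes. Only Hoxb7 had libraries without overlap, where 21.4% of all tested genes did. For any difference among the 3 groups edgeR called 0 of 19, beside 10.0% of all genes tested. There 1 Hox gene, Hoxd13, had an unadjusted p under 0.05, DESeq2 called 1 and limma on FPKM called 0.

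**Figure D3:**
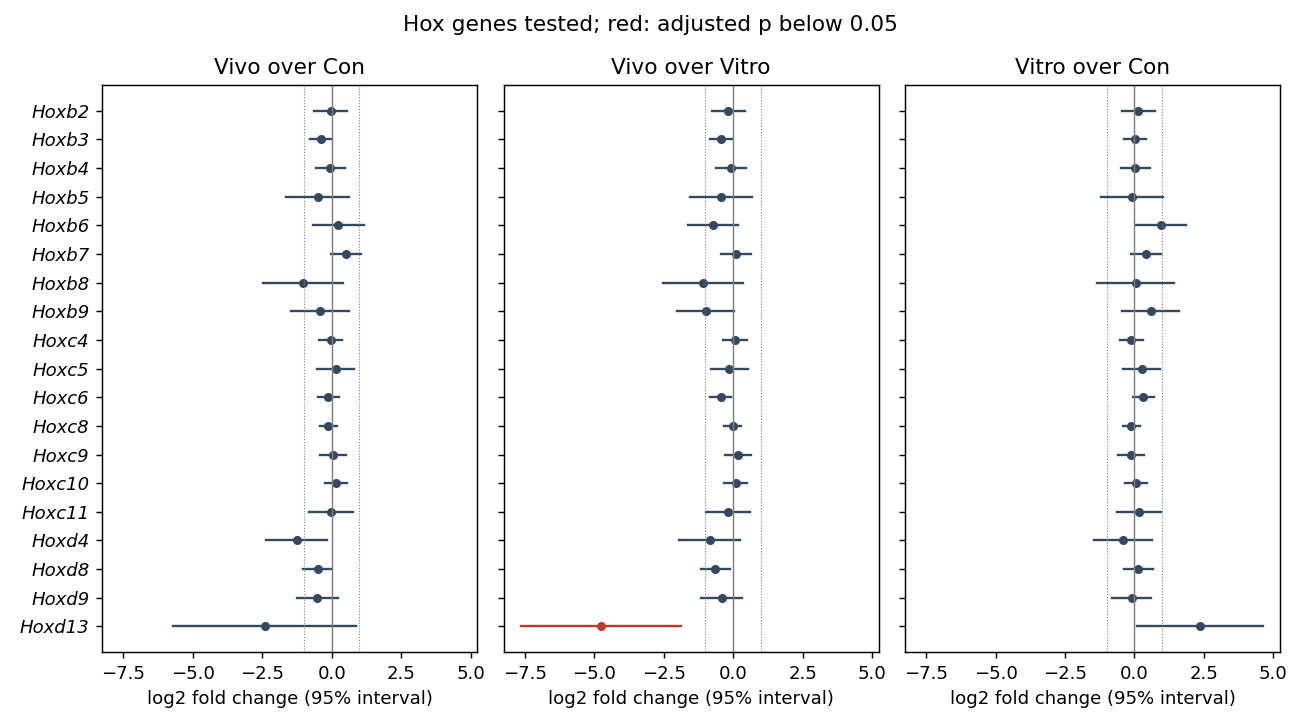
Log2 fold change with its 95% interval for the 19 tested Hox genes in each comparison (Vivo over Con, Vivo over Vitro, Vitro over Con; edgeR, 3 libraries a group); dotted lines mark 2-fold in either direction. All intervals of the tested HoxC genes lay between the dotted lines, and the called gene, Hoxd13 in Vivo over Vitro, had the widest interval of its panel.

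The likeness of the whole profile was described over the 19 tested genes on log2(CPM + 0.5). Pearson's r between libraries of different groups ran from 0.891 to 0.984 over 27 pairs, with a median of 0.958. Between libraries of the same group it ran from 0.933 to 0.982 over 9 pairs, with a median of 0.968. For Vivo with Con the 9 pairs lay between 0.951 and 0.976, for Vivo with Vitro between 0.915 and 0.984, and for Vitro with Con between 0.891 and 0.980. The ranges between and within groups overlapped. These r are across genes of unequal abundance that share libraries, and carry no test.

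Hoxd13, the most posterior HoxD gene, known from digit and urogenital development, was the gene called. It entered the test only through cultured libraries, where it was high. The call as lower in Vivo cells is therefore not independent of that selection. Hoxd13 had 1, 2 and 0 counts in Vivo libraries, 6, 60 and 27 in Vitro libraries and 0, 14 and 3 in Con libraries. As CPM these were 0.0543, 0.109 and 0 in Vivo libraries, 0.349, 3.24 and 1.44 in Vitro libraries and 0, 0.792 and 0.174 in Con libraries. Vivo libraries lay below Vitro libraries without overlap, while 2 of the Con libraries lay within or near the Vivo range. The 3 Vivo counts against 93 Vitro counts gave a ratio of 0.0326 after scaling for library totals (exact binomial 95% interval 0.0066 to 0.0983, for counting error only). The fitted log2 fold change of Vivo over Vitro was −4.76 ± 1.29 (SE; 95% interval −7.65 to −1.88; adjusted p = 0.0431, edgeR), a value that depends on the prior count. The call was lost in 7 of the 14 alternatives in which the gene was tested: without Vivo replicate 1, 2 or 3, without Vitro replicate 2 or 3, without Con replicate 3, and with limma on FPKM, with adjusted p between 0.00418 and 0.147 over all 14. Hoxd13 was not on in any group by the rule used here.

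Its paralog Hoxc13, a gene of hair and nail, was too sparse to be tested, with 3, 0 and 1 counts in Vivo libraries, 3, 21 and 15 in Vitro libraries and 0, 10 and 0 in Con libraries. The high libraries of both genes were Vitro replicates 2 and 3 and Con replicate 2. Cdx2, a caudal homeobox gene that acts upstream of posterior Hox genes in the embryo, had 0.163, 0 and 0 CPM in Vivo libraries, 1.11, 3.51 and 2.39 in Vitro libraries and 0.0569, 0.792 and 0.174 in Con libraries. Its libraries ranked as those of Hoxd13 did within the Vitro and the Con groups. Cdx2 likewise entered the test only through cultured libraries, where it was high. It was called lower in Vivo than in Vitro cells, with 3 against 129 counts (ratio 0.0235 after scaling for library totals, exact binomial 95% interval 0.00478 to 0.0702, for counting error only) and adjusted p = 0.0145 (edgeR), a call lost without Vitro replicate 2 (adjusted p = 0.0536, the highest of 16 alternatives). By Hoxd13 the 6 cultured libraries stood in the order they had on the second principal component of all tested genes (18.2% of the variance), which ran from −47.2, −32.1 and −5.58 in Con replicate 1, Con replicate 3 and Vitro replicate 1 to 1.66, 29.6 and 34.5 in Con replicate 2, Vitro replicate 3 and Vitro replicate 2. Its part in the Hoxd13 values was not tested.

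**Figure D4:**
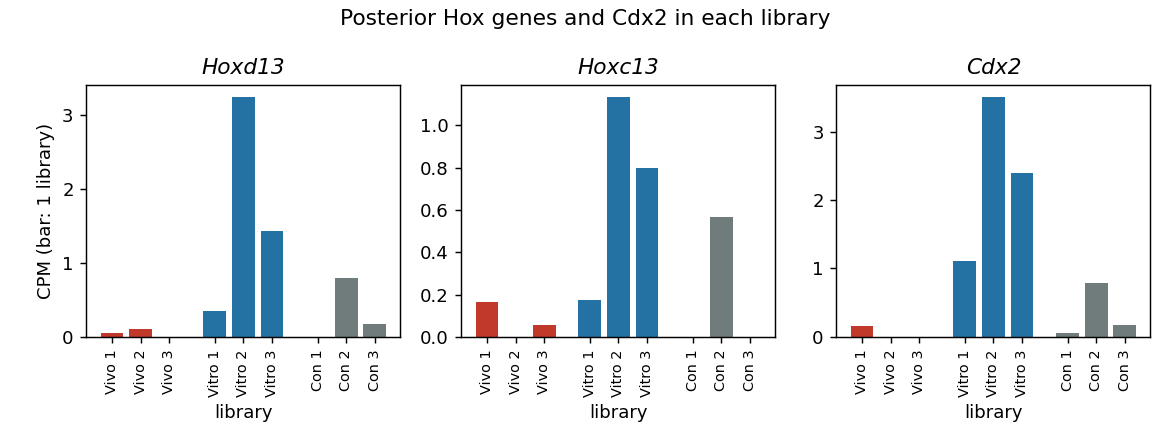
CPM of Hoxd13, Hoxc13 and Cdx2 in each library (Vivo, Vitro and Con from left to right, bars starting at 0). In each panel the highest library was Vitro replicate 2, followed by Vitro replicate 3, and Vivo libraries reached 0.163 CPM at most.

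The low HoxA values carry a limit of their own. The 11 HoxA genes had 3 to 10 counts per library in all, 0.171 to 0.545 CPM, at which differences between groups were not detectable. By FPKM the highest were Hoxa10, Hoxa5 and Hoxa3. Hoxa10 had 1, 6 and 1 counts in Vivo libraries, 1, 2 and 1 in Vitro libraries and 1, 2 and 2 in Con libraries. Hoxa5 had 3, 3 and 3 counts in Vivo libraries, 3, 2 and 5 in Vitro libraries and 1, 5 and 1 in Con libraries. Hoxa3 had 3, 0 and 1 counts in Vivo libraries, 1, 3 and 1 in Vitro libraries and 0 in all Con libraries. The table holds 8 second entries whose descriptions name HoxA genes (Hoxa6, Hoxa7, Hoxa9, Hoxa10 and Hoxa11, 5 genes) and none for HoxB, HoxC or HoxD. These entries held 98 counts over the 9 libraries, 79 of them in the entry LOC100911511, described as Hox-A6-like. Entries and members together came to 11 to 25 counts per library. The deposited FPKM did not follow the counts there: LOC100912608, described as Hox-A10-like, had 0.0771 to 0.527 FPKM in every library but 1 count in all, and LOC103689925, described as Hox-A9, reached 0.462 FPKM in Vitro replicate 3 with no count in any library. The sources used here do not say how reads that match more than 1 copy were counted, and their part in the HoxA values was not tested. The HoxA counts are therefore uncertain and do not show whether these genes were silent. Of the genes beside the cluster in RefSeq, Skap2 on one side was at 35.6 to 49.2 CPM, and on the other side Evx1 was at 0 in every library and Hibadh, beyond it, at 47.5 to 72.7 CPM.

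Proteins of the TALE class (Meis, Pbx, Pknox and Tgif) bind DNA together with Hox proteins or in competition with their partners. Of 11 listed, 10 were tested. Meis1 averaged 35.2 ± 5.51 CPM in Vivo, 37.2 ± 1.91 in Vitro and 34.7 ± 0.604 in Con cells (SD, n = 3 each), and passed the test in no comparison. For Vivo over Con edgeR called 0 of the 10, beside 9.73% of all tested genes, with 1 at an unadjusted p under 0.05 and 0 by DESeq2 and by limma on FPKM, and the median log2 fold change was 0.02 (all genes 0.01). For Vivo over Vitro 1 of the 10 was called, beside 10.9% of all tested genes: Pknox2 was higher, with 0.924, 2.40 and 4.11 CPM in Vivo libraries against 0.175, 0.270 and 0.106 in Vitro libraries (log2 3.70 ± 0.69, SE, adjusted p = 0.00915, edgeR), a call lost with limma on FPKM (adjusted p = 0.0742). In Con libraries Pknox2 was at 2.33, 0.906 and 2.32 CPM. For Vitro over Con edgeR called 0, with 2 unadjusted, 1 by DESeq2 and 0 by limma.

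Other transcription factors that mark body regions were read beside the Hox genes. Of 51 listed, 31 were tested. Prrx1, a limb and lateral plate mesenchyme factor, averaged 387 ± 130 CPM in Vivo, 469.8 ± 11.2 in Vitro and 412.7 ± 3.35 in Con cells. En1, which marks dermomyotome and ventral limb ectoderm in the embryo, was at 76.4 to 86.2, 75.3 to 88.3 and 85.7 to 96.7 CPM in those groups. Tbx15, a factor of trunk dermis and subcutaneous fat, was at 16.1 to 38.05, 24.7 to 30.2 and 28.2 to 40.4 CPM. Of the limb genes, the forelimb factor Tbx5 was at 2.34 to 3.03, 2.92 to 4.37 and 3.06 to 4.87 CPM, whereas the hindlimb factor Tbx4 stayed at or below 0.853 CPM in every library and was not tested. Pitx1, which acts upstream of Tbx4 in the hindlimb, varied within each group, at 0.326 to 2.51, 0.815 to 3.08 and 0.455 to 2.49 CPM. None of these tested genes passed the test in any comparison.

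In that list 2 genes were higher and 1 lower in Vivo than in Con cells, beside 5.17% of all tested genes called higher and 4.56% lower, and the median log2 fold change was −0.06 (all genes 0.01). Lhx2, a LIM homeodomain factor of limb bud mesenchyme, was at 4.35 ± 1.04 CPM in Vivo against 1.75 ± 0.175 in Con cells (log2 1.31 ± 0.27, SE, adjusted p = 0.0183), Twist2, a dermal mesenchyme factor, at 131.1 ± 3.57 against 68.6 ± 12.5 (log2 0.94 ± 0.21, adjusted p = 0.0259), and Foxf1, a factor of visceral mesoderm, at 1.39 ± 0.600 against 4.68 ± 0.988 (log2 −1.74 ± 0.41, adjusted p = 0.0287; SD of CPM, n = 3 each, edgeR). Over Vitro 3 were higher and 3 lower, beside 5.38% and 5.52% of all tested genes, with a median of 0.01 (all genes 0.02). Twist2 was at 131.1 ± 3.57 CPM in Vivo against 72.3 ± 22.5 in Vitro cells (adjusted p = 0.03, edgeR). Foxf1 was at 1.39 ± 0.600 against 5.08 ± 2.08 (adjusted p = 0.0180) and Msx2, a factor of limb and skull mesenchyme, at 2.11 ± 0.700 against 6.75 ± 1.12 (adjusted p = 0.0243; edgeR). Tbx3 was also among the higher genes and Hand2 among the lower ones, named here after their values were seen. Calls of these genes were lost without single libraries: Lhx2 without Con replicate 1 or 3, Foxf1 without Vivo replicate 2 or any Con replicate (over Con) and without Vivo replicate 2 or Vitro replicate 2 or 3 (over Vitro). Those of Twist2 were lost without Vivo replicate 1 or 2 and Con replicate 1 or 3 (over Con) or Vitro replicate 1 or 3 (over Vitro, and there also in the fit to the 2 groups alone), and that of Msx2 without Vivo replicate 2 or any Vitro replicate. The highest adjusted p among these was 0.117. For Vitro over Con edgeR called 0 of the 31, with 4 unadjusted, 1 by DESeq2 and 0 by limma on FPKM.

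Upstream signals of Hox expression and the chromatin regulators of the clusters formed the third list, with 36 symbols, 35 of them in the table and 31 tested. Retinoic acid is the best known inducer of anterior Hox genes, and Cyp26b1, an enzyme that degrades it, had 50.4, 25.5 and 26.6 CPM in Vivo libraries, 1.22, 1.73 and 2.76 in Vitro libraries and 1.42, 0.283 and 0.927 in Con libraries. All Vivo libraries lay far above all cultured ones. Its log2 fold change was 5.27 ± 0.52 for Vivo over Con (SE, adjusted p = 0.000578) and 4.16 ± 0.48 for Vivo over Vitro (adjusted p = 0.000779, edgeR), and both calls held in all 16 alternatives. Rarb, a retinoic acid receptor and a direct target of that signal, had 9.19, 7.79 and 12.4 CPM in Vivo libraries against 3.32, 0.972 and 2.55 in Vitro libraries (log2 2.10 ± 0.50, adjusted p = 0.0263, edgeR), a call lost without Vivo replicate 3 or Vitro replicate 2 or 3 (adjusted p up to 0.0807). In Con libraries it was at 6.82, 1.98 and 4.69 CPM. Gdf11, a TGF-beta family ligand that times the activation of posterior Hox genes in the embryo, had 31.4, 30.2 and 23.4 CPM in Vivo libraries and 59.8, 56.4 and 52.9 in Vitro libraries (log2 −0.99 ± 0.16, adjusted p = 0.00462, edgeR), a call that held in all 16 alternatives. In Con libraries Gdf11 was at 35.1, 47.8 and 38.3 CPM, and Vivo over Con did not pass the test (adjusted p = 0.0754).

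Of the chromatin regulators, Ezh2, the histone H3 lysine 27 methyltransferase of Polycomb, had 51.3, 51.3 and 52.2 CPM in Vivo libraries, 34.0, 58.4 and 58.3 in Vitro libraries and 26.4, 44.5 and 33.2 in Con libraries, and passed no test. Cbx7, a Polycomb subunit that reads that mark, was lower in Vivo than in Con cells, with 6.68, 6.27 and 3.77 CPM against 15.8, 11.0 and 13.7 (log2 −1.27 ± 0.24, SE, adjusted p = 0.0122, edgeR), a call lost without Con replicate 1 or 3 (adjusted p up to 0.0532). Gmnn (geminin), a replication licensing inhibitor that also binds Hox and Polycomb proteins, was higher in Vivo than in Con cells (31.7 ± 5.19 against 12.04 ± 5.85 CPM, SD, n = 3 each; log2 1.40 ± 0.38, SE, adjusted p = 0.0453, edgeR), and lost its call in 8 of 16 alternatives: without any Vivo replicate, without Vitro replicate 2 or 3, without Con replicate 1 or 3, and in the fit to the 2 groups alone (adjusted p up to 0.160). Kmt2a, the Trithorax-group histone methyltransferase that maintains Hox expression, was at 69.6, 73.5 and 8.40 CPM in Vivo libraries, 68.6, 87.9 and 82.7 in Vitro libraries and 70.5, 58.1 and 65.0 in Con libraries. The low library was Vivo replicate 3. Suz12, Phc3, Jarid2, Bmi1, Cbx6 and Kmt2b were among the listed genes also lowest of the 9 libraries there. Pcgf2, Phc2, Ash2l and Gmnn were among those highest there. The part of that library's difference in the Hox values was not tested. In all, 2 of the 31 were called higher and 1 lower for Vivo over Con, beside 5.17% and 4.56% of all tested genes. For Vivo over Vitro 2 were called higher and 2 lower, beside 5.38% and 5.52%. The medians were 0.06 and 0.04 (all genes 0.01 and 0.02). For Vitro over Con edgeR called 0, with 4 unadjusted and 0 by DESeq2 and by limma on FPKM.

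**Figure D5:**
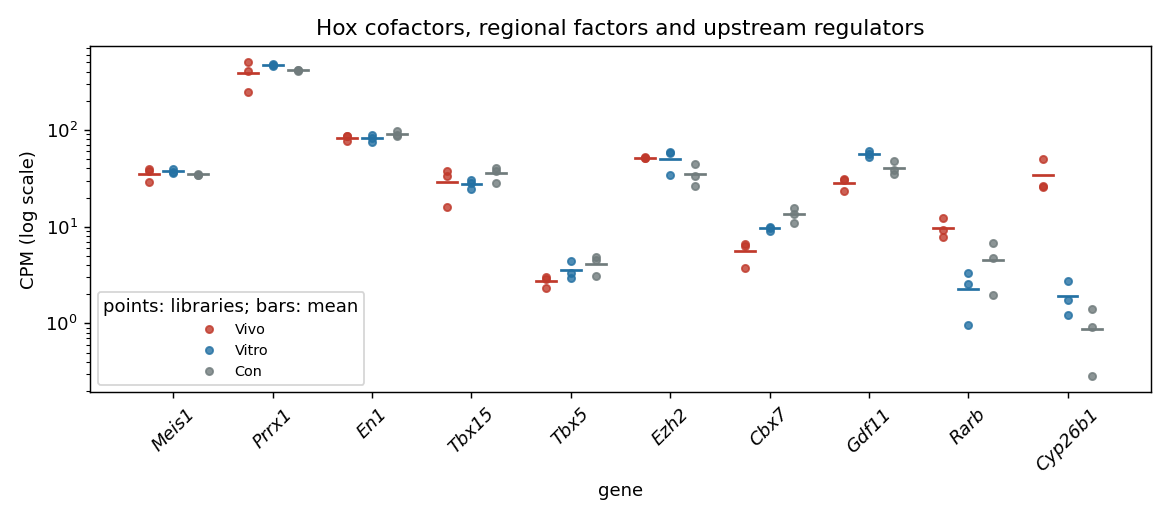
CPM (log axis) of Hox cofactors, regional transcription factors and upstream or chromatin regulators; points are libraries, bars group means of 3 libraries (Vivo, Vitro, Con from left to right). Cyp26b1 lay at 25.5 to 50.4 CPM in Vivo libraries, apart from all cultured ones, while En1 and Tbx15 overlapped between the groups.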

How the data were processed

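Stranded poly(A) libraries were made from Trizol-extracted RNA, per the labels' protocols. Per the submitters' processing notes, HISAT2 and Rnor_6.0 were used. The sources used here name neither the version of HISAT2 nor the counter, its strand setting or the FPKM tool, so overlapping and antisense genes cannot be told apart. The deposited table gives whole-number counts per gene, not normalised, per the file headers and values. It also gives FPKM made by the authors.

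Counts of 9 libraries were fitted in R 4.3.3 with edgeR 4.0.16 (filterByExpr, TMM, 1 quasi-likelihood fit of the 3 groups, 6 residual degrees of freedom, common biological coefficient of variation 0.231). All p-values are two-sided and were adjusted by Benjamini-Hochberg over the 12364 genes tested. Alternatives were edgeR's RLE scaling, no filter, a filter of 1 CPM in 3 libraries, DESeq2 1.42.0, limma 3.58.1 on log2(FPKM + 1), the replicate number as a block, fits to 2 groups and each library left out. Figures were drawn with matplotlib 3.10.9. All 39 symbols matched RefSeq (GRCr8), from which promoter sequences were taken.

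The Hox genes and the lists were chosen with earlier results of these data known. Values per library are given for each Hox gene called and for up to 3 genes of highest mean FPKM per cluster; of each other list, up to 4 called genes per comparison (smallest adjusted p first) and fixed genes (Tbx4, Tbx5, Pitx1, Tbx15, Meis1, Prrx1 and Ezh2 among them) are named. Some genes that the rule names are not reported here. Other genes named were chosen after their values were seen. Pecam1 and Kmt2d were not analysed here, and Kdm6a is listed at 0 in every library.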

Additional observations from a re-analysis of the deposited data

How the results depend on the processing

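Of 907 values of Hox genes under the alternatives, none of the called ones changed sign, 7 calls were lost (Hoxd13) and 52 values that were not called changed sign. For Vivo over Vitro the number of Hox genes called was 1 in the fit reported and 0 with a filter of 1 CPM in 3 libraries, with the fit to the 2 groups alone and with limma on FPKM; the first 2 did not test Hoxd13. Leaving out single libraries gave 0 to 1 for Vivo over Vitro, 0 to 1 for Vivo over Con (1, Hoxd3, adjusted p = 0.0404, without Vivo replicate 2) and 0 to 1 for any difference (1, Hoxd13, without Vitro replicate 1 or Con replicate 2). Hoxd3 entered that fit only through cultured libraries, where it was high. DESeq2 called 1 for any difference. With 5 CPM in place of 1 CPM, 8 Hox genes were on in Vivo, 8 in Vitro, 6 in Con and 6 in all 3 groups. Over all genes, Vivo over Con gave 1203 calls, 341 to 1706 without single libraries, 667 in the fit to 2 groups and 2046 with DESeq2. Vivo over Vitro gave 1348, 661 to 1660, 861 and 2078, and Vitro over Con gave 4, 0 to 54, 0 and 298. Any difference gave 1242, 633 to 1824 and, with DESeq2, 2557. The cause of these shifts was not tested. Replicate numbers are shared between groups in the labels. In their deviations from the group means, same-numbered Vitro and Con libraries correlated at 0.358, 0.324 and 0.092. Differently numbered Vitro and Con libraries correlated at −0.339 to 0.099. Same-numbered pairs that include a Vivo library lay between −0.015 and 0.112. The fit reported did not treat the samples as paired, and whether the numbers mark shared cultures is not known. With the replicate number as a block, 2 Hox genes were called for Vivo over Vitro (Hoxd13, and Hoxb9 with adjusted p = 0.042), 1 (Hoxd13) for any difference and 0 for the other comparisons, and over all genes Vitro over Con gave 7 calls. Low counts limit what can be said of all HoxA genes, Hoxc13 and, in Vivo libraries, Hoxd13. The cause of the low HoxA counts was not tested.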
